A study of Mus musculus with 24 samples.

Results

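Genes of cholesterol and fatty acid synthesis were described in mouse neural stem cells grown from the subventricular zone, a germinal layer beside the lateral ventricle. Members were the enzymes of both pathways together with the regulators Insig1, Srebf1 and Srebf2, each read from a probe set that carries 1 gene symbol. Of 32 named genes, 31 had such a probe set, of 21072 genes in all. These were 18 genes of the sterol branch, 10 of the fatty acid branch and 3 regulators. Idi1 was read only by probe sets shared with the gene Gm13502 and stands outside every count.

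Cultures came from 6 mice, the wild-type animals 818, 862 and 870 and the animals 489, 814 and 858 that the labels give as Mll1-deleted, and each mouse gave 1 array on days 0, 1, 2 and 4. All cultures had been serially passaged in a medium with 5% fetal bovine serum, epidermal growth factor and fibroblast growth factor at 20 ng/ml each, N2 supplement and bovine pituitary extract. After day 0 they were moved to a serum-free medium without the 2 growth factors that kept N2 and pituitary extract. Mll1, now named Kmt2a, encodes a histone H3 lysine 4 methyltransferase. The labels name neither the allele nor how the gene was deleted, and give no age. The cells can form several lineages, so a culture is a mixture, and in such bulk RNA fewer cells of a type and less RNA per cell cannot be told apart.

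The SREBP proteins, encoded by Srebf1 and Srebf2, are transcription factors held with Scap in the endoplasmic reticulum by Insig proteins while sterols are plentiful. When sterols are scarce they travel to the Golgi, are cut by the proteases of Mbtps1 and Mbtps2, and enter the nucleus to activate genes of lipid synthesis. The product of Srebf2 acts mainly on sterol genes, and that of Srebf1 mainly on fatty acid genes. The brain makes its own cholesterol, because plasma lipoproteins do not cross the blood-brain barrier, and myelin is rich in it.

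Promoters of 5 members that stand for the regulators and both branches are shown because each of these genes was higher in Mll1-deleted than in wild-type cultures on day 4. Each is the 250 bases before a RefSeq start site (GRCm38.p6), read 5′ to 3′ on the strand of the gene. Capitals mark a sterol regulatory element (TCACNCCAC), a CCAAT box (CCAAT) or an E-box (CACGTG), on either strand.
Hmgcs1, chr13:119690101-119690350, plus strand: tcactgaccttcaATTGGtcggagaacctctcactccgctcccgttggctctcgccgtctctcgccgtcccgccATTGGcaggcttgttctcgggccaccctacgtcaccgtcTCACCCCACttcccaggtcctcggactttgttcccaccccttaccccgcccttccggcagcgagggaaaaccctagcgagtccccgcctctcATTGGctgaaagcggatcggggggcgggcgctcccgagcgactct
Cyp51, chr5:4104698-4104947, minus strand: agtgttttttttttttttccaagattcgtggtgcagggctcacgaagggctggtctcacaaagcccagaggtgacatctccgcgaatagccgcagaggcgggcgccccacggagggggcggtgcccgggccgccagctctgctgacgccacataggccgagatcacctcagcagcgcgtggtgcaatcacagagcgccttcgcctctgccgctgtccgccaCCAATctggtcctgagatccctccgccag
Insig1, chr5:28071162-28071411, plus strand: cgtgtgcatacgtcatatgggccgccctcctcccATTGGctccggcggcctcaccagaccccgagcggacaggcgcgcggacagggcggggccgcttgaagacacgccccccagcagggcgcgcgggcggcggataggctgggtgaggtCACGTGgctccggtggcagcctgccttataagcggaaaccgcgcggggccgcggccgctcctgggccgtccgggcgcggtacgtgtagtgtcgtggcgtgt
Fasn, chr11:120824548-120824797, minus strand: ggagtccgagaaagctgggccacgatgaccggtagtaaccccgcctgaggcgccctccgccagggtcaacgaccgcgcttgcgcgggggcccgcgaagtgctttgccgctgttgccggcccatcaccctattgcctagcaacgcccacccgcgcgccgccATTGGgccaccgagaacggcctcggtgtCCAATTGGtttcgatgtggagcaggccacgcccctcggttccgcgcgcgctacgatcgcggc
Elovl6, chr3:129532136-129532385, plus strand: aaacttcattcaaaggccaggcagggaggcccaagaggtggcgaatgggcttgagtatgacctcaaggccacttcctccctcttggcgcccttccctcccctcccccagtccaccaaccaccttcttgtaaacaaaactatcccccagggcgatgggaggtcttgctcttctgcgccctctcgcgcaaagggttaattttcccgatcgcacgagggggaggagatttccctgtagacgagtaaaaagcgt

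Among these, the Hmgcs1 window held TCACCCCAC, whose first base lies 137 bases before the start site, and 3 CCAAT boxes. Insig1 held 1 E-box and 1 CCAAT box, Cyp51 1 CCAAT box and Fasn 3, of which 2 overlap as CCAATTGG. Elovl6 held none of the 3 motifs. The search covered windows of 300 bases, from 250 before to 50 after the start, for 25 of the 32 members (Idi1 included). The sterol regulatory element was searched only as the exact letters TCACNCCAC (N for any base), and variants of them were not counted. These letters lay in 1 of 15 sterol genes, 0 of 7 fatty acid genes and 0 of 3 regulators, against 1.44% of all 27025 genes. CCAAT boxes lay in 14 of 15 sterol genes, 3 of 7 fatty acid genes and all 3 regulators, against 41.1% of all genes. The GC box (GGGCGG) had the same member counts against 38.2%, and the E-box lay in 3 of 15, 0 of 7 and 1 of 3 against 8.09%. A match is a description of letters, not of a bound site. Fdps, Fdft1, Sqle, Stard4, Scd1, Scd2 and Fads1 had no entry.

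Array medians lay between 75.6 and 87.1 intensity units, and arrays of a group correlated with r of 0.984 to 0.996 across genes. The number of arrays limits the precision. Kmt2a was not lower in the Mll1-deleted cultures: its intensity was 326.5 to 427.9 in wild-type and 481.4 to 580.0 in Mll1-deleted cultures on day 0, and 239.7 to 343.1 and 373.2 to 399.5 on day 4. The day 0 difference was 0.48 ± 0.13 (adjusted p = 0.0176). Where its probes lie relative to the deleted part is not given in the sources used here, so its level is no check of the genotype. The neural stem cell list (Nes, Sox2, Vim and 5 others) had no gene below the array's lower quartile in every array. Its summed intensity was 21151 to 32640 over the wild-type arrays and 21232 to 29757 over the Mll1-deleted arrays. On day 0, 4 of its 8 genes were lower and 0 higher in Mll1-deleted cultures, with a median difference of -0.52 log2 units. Over all genes 4.7% were lower and 5.41% higher on that day. On day 4, 1 was lower and 1 higher, where 2.73% and 3.73% of all genes were.

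Intensities are deposited values on a linear scale after robust multi-array averaging (RMA). They are compared for a gene across arrays and not between genes, because probe sets differ in brightness. Member intensities ran from 86.5 to 11846, and 0 of 744 values lay below the lower quartile of their array (23.3 to 28.3). Differences are in log2 units with the standard error of the limma fit. The threshold for a call was 0.05 on the p-value after Benjamini-Hochberg adjustment across 21072 genes.

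In wild-type cultures 8 of 18 sterol genes had fallen within a day, where 13.8% of all 21072 genes fell, and 10 were lower on day 4, where 20.4% of all genes were. In Mll1-deleted cultures 13 were lower on day 2 (13.9% of all genes), and on day 4 only Ebp was lower (15.7%) and 4 were higher (13.9%). In the fatty acid branch of wild-type cultures 6 of 10 genes fell between days 1 and 4 (12.5% of all genes). On day 4, 23 of 31 members were higher in Mll1-deleted than in wild-type cultures and 0 were lower, against 3.73% and 2.73% of all genes, with a median difference of 0.68 log2 units over all 31. On day 0 only Sc5d differed by the test, higher in Mll1-deleted cultures (5.41% of all genes).

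**Figure D1:**
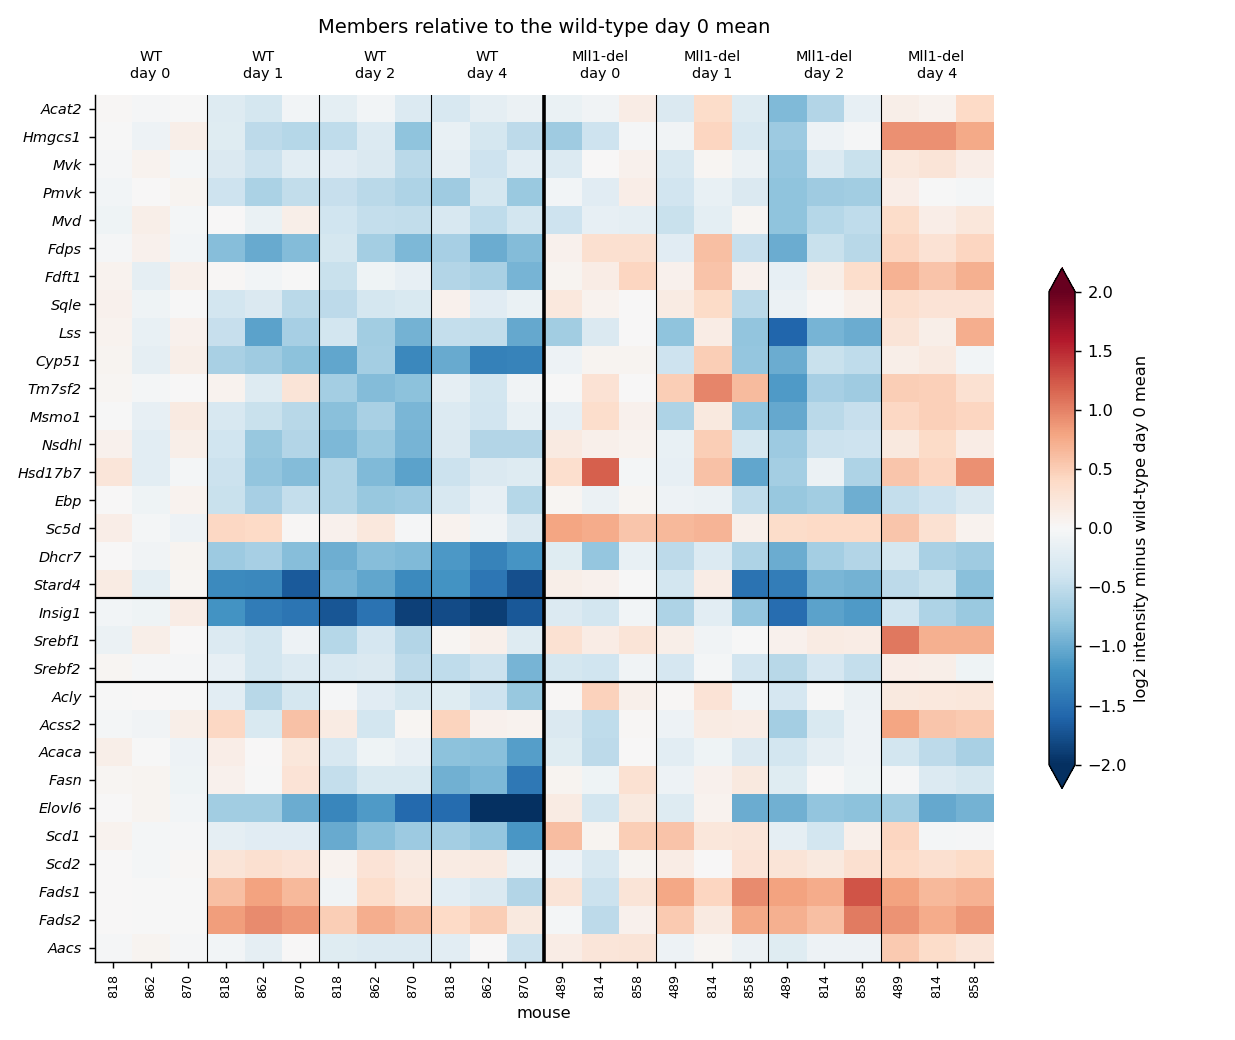
Log2 intensity of each of the 31 members (rows, in pathway order, with lines between sterol branch, regulators and fatty acid branch) on each of 24 arrays (columns, by genotype, day and mouse), minus the wild-type day 0 mean of the gene. Blue is lower and red higher, on a colour scale cut at 2 log2 units either way. Most sterol rows are blue in wild-type cultures on days 1, 2 and 4 and in Mll1-deleted cultures on day 2, and red or pale in Mll1-deleted cultures on day 4.

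The regulators came first. Insig1 encodes the membrane protein that retains the SREBP complex and is itself a target of SREBP. Insig1 intensities in wild-type mice 818, 862 and 870 were 1731, 1696 and 1986 on day 0, 789, 682 and 654 on day 1, 553, 647 and 495 on day 2 and 519, 487 and 553 on day 4. Insig1 in Mll1-deleted mice 489, 814 and 858 measured 1489.6, 1395 and 1730.2 on day 0, 1177, 1559 and 1051 on day 1, 623, 858 and 819 on day 2 and 1362, 1171 and 1077 on day 4. Values of all genes follow these orders of mice. Every wild-type array after day 0 lay below every wild-type array of day 0, and on days 1 and 4 every Mll1-deleted array lay above every wild-type array. The wild-type level fell by 1.35 (SE 0.15, adjusted p = 6.8e-07) by day 1 and fell by 1.79 (SE 0.15, adjusted p = 4.2e-09) by day 4. In Mll1-deleted cultures it fell by 1.01 (SE 0.15, adjusted p = 4.3e-05) by day 2, and the change by day 4 was -0.35 ± 0.15 (adjusted p = 0.0792). On day 4 Insig1 was 2.31-fold higher in Mll1-deleted cultures (1.21 ± 0.16, adjusted p = 3.1e-05), and on day 1 the difference was 0.82 ± 0.16 (adjusted p = 0.00155).

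Srebf2, which encodes the sterol-directed SREBP2, in wild-type mice read 1408, 1356 and 1349 on day 0, 1219.6, 1061 and 1133 on day 1, 1102, 1122 and 959 on day 2 and 959, 1019 and 719 on day 4. Srebf2 in Mll1-deleted mice read 1079.5, 1045 and 1309.7 on day 0, 1091, 1327 and 1048 on day 1, 932, 1091 and 988 on day 2 and 1499, 1488 and 1291 on day 4. All wild-type arrays after day 0 were below those of day 0, and on day 4 the genotypes did not overlap, although on day 0 all Mll1-deleted arrays lay below all wild-type arrays. The wild-type level fell by 0.62 (SE 0.13, adjusted p = 4.6e-04) by day 4, and the day 4 genotype difference was 0.68 ± 0.13 (adjusted p = 0.00201). Srebf1, which encodes the fatty-acid-directed SREBP1, in wild-type mice read 1239.8, 1453 and 1351 on day 0, 1110.2, 1039 and 1250.2 on day 1, 901, 1061 and 893 on day 2 and 1386, 1446 and 1119.7 on day 4. Srebf1 in Mll1-deleted mice read 1668, 1486 and 1616 on day 0, 1466, 1281 and 1334 on day 1, 1429, 1504 and 1491 on day 2 and 2798, 2208 and 2197 on day 4. Its Mll1-deleted arrays lay above all wild-type arrays on each of the 4 days. By test it was higher on day 2 (0.64 ± 0.12, adjusted p = 0.00127) and on day 4 (0.87 ± 0.12, adjusted p = 7.0e-05), and it rose within Mll1-deleted cultures by day 4 (0.59 ± 0.12, adjusted p = 5.9e-04).

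The first enzymes of the sterol branch make mevalonate and its isoprenoid products. Hmgcs1, which condenses acetyl-CoA with acetoacetyl-CoA, in wild-type mice read 1829.8, 1711 and 1984 on day 0, 1548, 1279.5 and 1233 on day 1, 1298, 1520.1 and 1051 on day 2 and 1656, 1434 and 1276 on day 4. Hmgcs1 in Mll1-deleted mice read 1128, 1382 and 1799.9 on day 0, 1756, 2476 and 1466 on day 1, 1113, 1708 and 1800.3 on day 2 and 3476, 3468 and 3105 on day 4. Mouse 814 was high on day 1, and on day 4 all 3 Mll1-deleted arrays were above every other array of the gene. It rose in Mll1-deleted cultures by day 4 (1.25 ± 0.20, adjusted p = 5.0e-05), and the genotype difference on that day was 1.21 ± 0.20 (adjusted p = 4.3e-04). Mvk, the kinase that phosphorylates mevalonate, in wild-type mice read 305, 326 and 303 on day 0, 254, 232 and 269 on day 1, 267, 255 and 215 on day 2 and 273, 233 and 269.6 on day 4. Mvk in Mll1-deleted mice read 256, 312 and 329 on day 0, 249, 318 and 285 on day 1, 183, 258 and 228 on day 2 and 358, 371 and 339.7 on day 4. Its day 4 groups did not overlap (0.47 ± 0.13, adjusted p = 0.0266), and that call was lost without mouse 814 (adjusted p = 0.096), without mouse 818 (adjusted p = 0.0509), without mouse 862 (adjusted p = 0.165), without mouse 870 (adjusted p = 0.0676) and with only the arrays of the groups compared (adjusted p = 0.0679). Pmvk, the next kinase, in wild-type mice read 269.6, 279.8 and 289.8 on day 0, 209, 181 and 199 on day 1, 204, 192 and 182 on day 2 and 171, 219 and 167 on day 4. Pmvk in Mll1-deleted mice read 268, 238 and 307 on day 0, 214, 251 and 229 on day 1, 159.6, 170.4 and 173 on day 2 and 305, 277 and 272 on day 4. Wild-type arrays fell on day 1 and stayed low, and Mll1-deleted arrays were low on day 2 and high again on day 4 (0.63 ± 0.12, adjusted p = 0.00155 for the genotypes on day 4).

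Mvd, which decarboxylates mevalonate pyrophosphate, in wild-type mice read 297, 344 and 309 on day 0, 318, 289 and 341 on day 1, 239, 227 and 226 on day 2 and 252, 223 and 244 on day 4. Mvd in Mll1-deleted mice read 238, 282 and 278 on day 0, 233, 276 and 325 on day 1, 180.1, 212 and 223 on day 2 and 409.5, 347 and 369 on day 4. The wild-type level was lower on days 2 and 4 without overlap, and the Mll1-deleted level was lower on day 2 and higher on day 4 without overlap. On day 0 the Mll1-deleted arrays lay below all wild-type arrays. By day 4 Mvd fell by 0.40 (SE 0.12, adjusted p = 0.0107) in wild-type cultures and rose in Mll1-deleted ones (0.50 ± 0.12, adjusted p = 0.00283), calls lost without mouse 862 (adjusted p = 0.171) and without mouse 489 (adjusted p = 0.0535), in that order. On day 4 the genotypes differed by 0.65 ± 0.12 (adjusted p = 0.00154). Fdps, which makes farnesyl pyrophosphate, in wild-type mice read 420.5, 452 and 410.0 on day 0, 238, 212 and 234 on day 1, 336, 265 and 228 on day 2 and 269, 214 and 235 on day 4. Fdps in Mll1-deleted mice read 451, 531 and 531 on day 0, 366, 645 and 310.0 on day 1, 215, 313 and 291 on day 2 and 574, 524 and 573 on day 4. Wild-type arrays after day 0 stayed below those of day 0, and Mll1-deleted arrays were higher than wild-type on days 1 and 4, with mouse 814 highest on day 1. Its genotype difference was 1.22 ± 0.19 on day 4 (adjusted p = 2.6e-04) and 0.88 ± 0.19 on day 1 (adjusted p = 0.0051). The day 1 call of Fdps was lost without mouse 814 (adjusted p = 0.0594), without mouse 862 (adjusted p = 0.0509) and with only the arrays of the groups compared (adjusted p = 0.084). Acat2, which makes acetoacetyl-CoA, was 0.40 log2 units higher in Mll1-deleted cultures on day 4 (adjusted p = 0.171), with no overlap of arrays.

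The 2 shared probe sets of Idi1, the isomerase between Mvd and Fdps, changed by -1.30 and -1.31 in wild-type cultures by day 4 and by -0.22 and -0.21 in Mll1-deleted ones. The genotypes differed there by 1.13 and 1.15. These values can include Gm13502 and were given no test.

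Squalene and lanosterol are made next. Fdft1, the squalene synthase, in wild-type mice read 1130.0, 958 and 1165 on day 0, 1093, 1043 and 1075 on day 1, 798, 1016 and 960.4 on day 2 and 718, 693 and 565 on day 4. Fdft1 in Mll1-deleted mice read 1126, 1194 and 1463 on day 0, 1144, 1612 and 1153 on day 1, 967, 1167 and 1382 on day 2 and 1749, 1611 and 1760.5 on day 4. Wild-type arrays held their level to day 1 and were lowest on day 4, where the lowest Mll1-deleted array read 1611 and the highest wild-type array 718. On day 4 the difference between genotypes was 2.6-fold (1.38 ± 0.15, adjusted p = 5.7e-06), the largest of the 31 members. By then Fdft1 fell by 0.72 (SE 0.15, adjusted p = 4.6e-04) in wild-type cultures and rose in Mll1-deleted ones (0.44 ± 0.15, adjusted p = 0.0273), the latter call lost without mouse 489 (adjusted p = 0.19), without mouse 814 (adjusted p = 0.0806) and with arrays shifted to the same median (adjusted p = 0.0719). A second Fdft1 probe set, shared with Gm6781, differed by 1.40 between genotypes on day 4. Lss, which closes the sterol rings, in wild-type mice read 288, 247 and 293 on day 0, 199, 131 and 175 on day 1, 212, 170.3 and 143 on day 2 and 199, 195 and 136 on day 4. Lss in Mll1-deleted mice read 170.1, 226 and 278 on day 0, 158, 307 and 159 on day 1, 91.7, 144 and 138 on day 2 and 330.3, 299 and 455 on day 4. Mouse 489 was low on day 2 and mouse 858 high on day 4, and the day 4 groups did not overlap (1.03 ± 0.25, adjusted p = 0.0116), and that call was lost without mouse 870 (adjusted p = 0.128). Sqle, the epoxidase between them, was 0.39 higher on day 4 (adjusted p = 0.184) without overlap.

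Lanosterol is then trimmed to cholesterol. Cyp51, which removes its 14-methyl group, in wild-type mice read 374, 321 and 394 on day 0, 229.9, 220.3 and 205 on day 1, 176, 225 and 148 on day 2 and 180.2, 141 and 144 on day 4. Cyp51 in Mll1-deleted mice read 336, 375 and 377 on day 0, 272, 510.4 and 211 on day 1, 182, 266 and 253 on day 2 and 391, 409 and 349.9 on day 4. Wild-type arrays were lower on day 1 than on day 0 and lower still on day 4, without overlap, when the lowest Mll1-deleted array read 349.9 and the highest wild-type array 180.2. It fell by 1.23 (SE 0.22, adjusted p = 9.1e-05) in wild-type cultures by day 4 and the genotypes then differed by 1.31 ± 0.22 (adjusted p = 4.8e-04). Tm7sf2, a sterol reductase, in wild-type mice read 289, 276 and 283 on day 0, 297, 236 and 336 on day 1, 177, 156 and 159 on day 2 and 250.2, 219.9 and 268 on day 4. Tm7sf2 in Mll1-deleted mice read 282, 345 and 283 on day 0, 398, 553 and 437 on day 1, 129, 178 and 173 on day 2 and 399, 391 and 347 on day 4. Both genotypes were lowest on day 2, and Mll1-deleted arrays were above all wild-type arrays on days 1 and 4. The differences were 0.68 ± 0.14 on day 1 (adjusted p = 0.00292) and 0.63 ± 0.14 on day 4 (adjusted p = 0.0069). These calls of Tm7sf2 were lost without mouse 862 (adjusted p = 0.0534) and with only the arrays of the groups compared (adjusted p = 0.0685) for day 1, and without mouse 862 (adjusted p = 0.0554) for day 4.

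Msmo1, the 4-methyl sterol oxidase, in wild-type mice read 2284, 2041 and 2598 on day 0, 1834, 1694 and 1558 on day 1, 1281, 1470.2 and 1212 on day 2 and 1904, 1764 and 2063 on day 4. Msmo1 in Mll1-deleted mice read 2047, 2942 and 2449 on day 0, 1494, 2615 and 1338 on day 1, 1132, 1586 and 1664 on day 2 and 3052, 3202 and 3091 on day 4. Both genotypes were lower on day 2, without overlap with day 0, and only the Mll1-deleted arrays were above their day 0 range on day 4. The genotypes differed on day 4 by 0.71 ± 0.19 (adjusted p = 0.0214), and that call was lost without mouse 489 (adjusted p = 0.0525), without mouse 818 (adjusted p = 0.0729), without mouse 862 (adjusted p = 0.119) and without mouse 870 (adjusted p = 0.0672). Nsdhl, the dehydrogenase that acts with it, in wild-type mice read 465, 379 and 474 on day 0, 331, 259 and 289.7 on day 1, 234, 262 and 229 on day 2 and 358, 292 and 292 on day 4. Nsdhl in Mll1-deleted mice read 496, 471 and 459 on day 0, 393, 612 and 342 on day 1, 264, 324 and 329 on day 2 and 502, 569 and 484 on day 4. Mll1-deleted arrays lay above all wild-type arrays on days 1, 2 and 4. The test gave 0.72 ± 0.16 on day 4 (adjusted p = 0.00639), lost without mouse 870 (adjusted p = 0.0684). On day 1 it gave 0.57 ± 0.16 (adjusted p = 0.028), lost without mouse 489 (adjusted p = 0.0615), without mouse 814 (adjusted p = 0.335), without mouse 862 (adjusted p = 0.15), without mouse 870 (adjusted p = 0.115) and with only the arrays of the groups compared (adjusted p = 0.209). Hsd17b7, the ketosteroid reductase of the same complex, differed by 0.96 ± 0.29 on day 4 (adjusted p = 0.051) without overlap of arrays.

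The last steps were less uniform. Ebp, a sterol isomerase, in wild-type mice read 253, 236 and 265 on day 0, 184, 159 and 181 on day 1, 166, 149 and 152 on day 2 and 201, 224 and 169 on day 4. Ebp in Mll1-deleted mice read 258, 231 and 257 on day 0, 234, 229.9 and 177 on day 1, 149, 155 and 128 on day 2 and 179.7, 188 and 205 on day 4. It was lower than on day 0 on days 2 and 4 in both genotypes, and the day 4 groups overlapped (-0.05 ± 0.13, adjusted p = 0.909), the only member with a negative difference on that day. Sc5d, the sterol desaturase, in wild-type mice read 560.5, 500.1 and 476 on day 0, 679, 674 and 520.3 on day 1, 542, 595 and 503 on day 2 and 539, 484 and 417 on day 4. Sc5d in Mll1-deleted mice read 878, 856 and 754 on day 0, 801, 817 and 551 on day 1, 657, 672 and 671 on day 2 and 749.9, 631 and 539 on day 4. Its Mll1-deleted arrays were above all wild-type arrays on days 0 and 2, and it was the only member called on day 0 (0.70 ± 0.14, adjusted p = 0.00174). On day 4 the Sc5d groups touched, since mouse 858 and mouse 818 read 539 each when rounded (0.41 ± 0.14, adjusted p = 0.0901). Dhcr7, the final reductase of one route, in wild-type mice read 767, 726 and 794 on day 0, 461, 482 and 420.2 on day 1, 387, 420.4 and 413 on day 2 and 345, 302 and 336 on day 4. Dhcr7 in Mll1-deleted mice read 641, 447 and 688 on day 0, 531, 633 and 494 on day 1, 383, 478 and 508 on day 2 and 597, 487 and 464 on day 4. On day 0 the Mll1-deleted arrays lay below the wild-type ones, and on days 1 and 4 above them. Dhcr7 fell by 1.22 (SE 0.14, adjusted p = 4.9e-07) in wild-type cultures by day 4, and the day 4 genotype difference was 0.65 ± 0.15 (adjusted p = 0.0108), lost without mouse 489 (adjusted p = 0.0742), without mouse 862 (adjusted p = 0.0954) and without mouse 870 (adjusted p = 0.0582).

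Stard4, a carrier of cholesterol inside the cell, in wild-type mice read 325, 256 and 298 on day 0, 121, 119 and 91.0 on day 1, 152, 142 and 121 on day 2 and 128, 107 and 86.5 on day 4. Stard4 in Mll1-deleted mice read 318, 308 and 290.5 on day 0, 225, 322 and 105 on day 1, 111, 155 and 152 on day 2 and 202, 214 and 164 on day 4. On day 1 the Mll1-deleted mice spread from 105 to 322, with mouse 858 inside the wild-type range, and on day 4 the genotypes did not overlap. Stard4 fell by 1.42 (SE 0.26, adjusted p = 2.2e-04) by day 1 in wild-type cultures. The day 4 genotype difference of 0.86 ± 0.25 (adjusted p = 0.0412) was lost without mouse 489 (adjusted p = 0.155), without mouse 814 (adjusted p = 0.0836), without mouse 818 (adjusted p = 0.0571), without mouse 862 (adjusted p = 0.143), without mouse 870 (adjusted p = 0.254) and with a pseudocount of 16 (adjusted p = 0.0517).

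**Figure D2:**
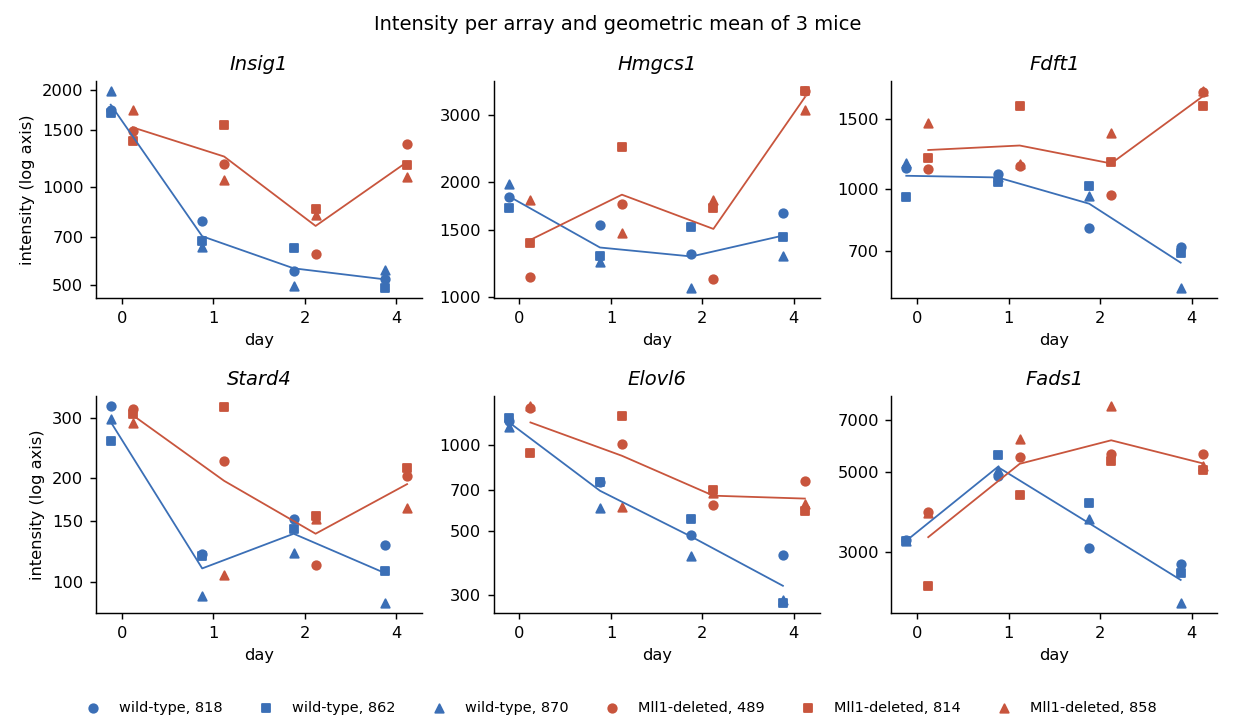
Intensity (log axis) of 6 members on days 0, 1, 2 and 4, with 1 point per array, marker shape for the mouse and a line through the geometric mean of the 3 mice of a genotype (blue wild-type, red Mll1-deleted). On day 4 the red points lie above the blue ones in all 6 panels, and on day 1 mouse 814 is the highest Mll1-deleted point for Insig1, Hmgcs1, Fdft1, Stard4 and Elovl6.

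The fatty acid branch starts from cytosolic acetyl-CoA. Acly, which makes it from citrate, in wild-type mice read 859.6, 872 and 864 on day 0, 751, 588 and 679 on day 1, 856, 743 and 676 on day 2 and 732, 647 and 513 on day 4. Acly in Mll1-deleted mice read 879, 1190.4 and 933 on day 0, 879, 1049 and 834 on day 1, 686, 858 and 801 on day 2 and 992, 999 and 1018 on day 4. Mll1-deleted arrays lay above all wild-type arrays on days 0, 1 and 4, and the day 4 difference was 0.68 ± 0.13 (adjusted p = 0.00236). The day 1 difference of 0.45 ± 0.13 (adjusted p = 0.0397) was lost without mouse 489 (adjusted p = 0.102), without mouse 814 (adjusted p = 0.25), without mouse 862 (adjusted p = 0.241), without mouse 870 (adjusted p = 0.0796), without a mouse term (adjusted p = 0.0528) and with only the arrays of the groups compared (adjusted p = 0.145). Acss2, which makes acetyl-CoA from acetate, rose in Mll1-deleted cultures by day 4 (0.88 ± 0.20, adjusted p = 0.00152), and the genotypes differed then by 0.42 ± 0.19 (adjusted p = 0.226) without overlap. Aacs, which activates acetoacetate for lipid synthesis, in wild-type mice read 373, 393 and 371 on day 0, 364, 334 and 380.3 on day 1, 320.1, 316 and 314 on day 2 and 326, 382 and 281 on day 4. Aacs in Mll1-deleted mice read 421, 451 and 451 on day 0, 353, 390.1 and 349.8 on day 1, 320.5, 354 and 354 on day 2 and 544, 488 and 450.3 on day 4. Its Mll1-deleted arrays were above all wild-type arrays on days 0, 2 and 4, and the day 4 difference was 0.59 ± 0.11 (adjusted p = 0.00126), lost with only the arrays of the groups compared (adjusted p = 0.0551).

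Acaca, the acetyl-CoA carboxylase that makes malonyl-CoA, in wild-type mice read 954, 874 and 818 on day 0, 964, 882 and 1029.9 on day 1, 707, 826 and 783 on day 2 and 498, 494 and 412 on day 4. Acaca in Mll1-deleted mice read 746, 614 and 888 on day 0, 762, 826 and 718 on day 1, 685, 776 and 822 on day 2 and 679, 611 and 559.7 on day 4. Wild-type arrays kept their level to day 1 and were lower on day 4, without overlap with either day, and Mll1-deleted arrays lay below them on day 1 and above them on day 4. It fell by 0.92 (SE 0.13, adjusted p = 4.0e-06) in wild-type cultures by day 4, and the day 4 genotype difference was 0.40 ± 0.13 (adjusted p = 0.081). Its other probe set, with cross-hybridisation code 1 where the first has code 3, gave -0.47 for the wild-type change and 0.40 for the genotypes. Fasn, the fatty acid synthase, in wild-type mice read 1813, 1837 and 1662 on day 0, 1877, 1754 and 2148 on day 1, 1276, 1434 and 1433 on day 2 and 908, 949 and 657 on day 4. Fasn in Mll1-deleted mice read 1833, 1663 and 2193 on day 0, 1649.9, 1869.6 and 2028 on day 1, 1492, 1774 and 1669 on day 2 and 1731, 1469 and 1386 on day 4. Wild-type arrays of day 1 overlapped those of day 0, and the lowest came on day 4, where mouse 870 was lowest, and the Mll1-deleted arrays lay above all of them. Fasn fell by 1.10 (SE 0.14, adjusted p = 1.1e-06) in wild-type cultures by day 4, and the genotypes then differed 1.84-fold (0.88 ± 0.14, adjusted p = 4.1e-04).

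Elovl6, which lengthens palmitate, in wild-type mice read 1213, 1248 and 1155 on day 0, 743, 743 and 603 on day 1, 486, 551 and 410.0 on day 2 and 415, 281 and 289 on day 4. Elovl6 in Mll1-deleted mice read 1344, 938 and 1372 on day 0, 1009.5, 1264 and 607 on day 1, 619.9, 698 and 683 on day 2 and 747, 591 and 624 on day 4. It went down in both genotypes, further in the wild-type, and the genotypes did not overlap on days 2 and 4. By day 4 Elovl6 fell by 1.90 (SE 0.20, adjusted p = 1.4e-07) in wild-type cultures and fell by 0.88 (SE 0.20, adjusted p = 0.0021) in Mll1-deleted ones. The day 4 genotype difference was 1.01 ± 0.21 (adjusted p = 0.00401), lost without mouse 870 (adjusted p = 0.0508). Scd1, a desaturase that makes oleate, in wild-type mice read 3367, 3116 and 3147 on day 0, 2844, 2756 and 2735 on day 1, 1603, 1799 and 1932 on day 2 and 1998, 1878 and 1437 on day 4. Scd1 in Mll1-deleted mice read 4923, 3331 and 4491 on day 0, 4742, 3739 and 3809 on day 1, 2832, 2485 and 3457 on day 2 and 4301, 3118 and 3149 on day 4. Its Mll1-deleted arrays were above all wild-type arrays on days 1, 2 and 4. The difference was 0.99 ± 0.16 on day 4 (adjusted p = 2.5e-04) and 0.71 ± 0.16 on day 2 (adjusted p = 0.00465), the latter lost without mouse 818 (adjusted p = 0.0508). Scd2, a form abundant in brain, differed by 0.29 ± 0.10 on day 4 (adjusted p = 0.109) and rose in Mll1-deleted cultures by then (0.49 ± 0.10, adjusted p = 0.00106).

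The desaturases of polyunsaturated fatty acids went the other way at first. Fads1 in wild-type mice read 3234, 3214 and 3220.1 on day 0, 4891, 5599 and 5076 on day 1, 3078, 4098 and 3716 on day 2 and 2774, 2626 and 2156 on day 4. Fads1 in Mll1-deleted mice read 3868, 2405 and 3855 on day 0, 5507, 4319 and 6211 on day 1, 5619, 5390.5 and 7679 on day 2 and 5627, 5070.2 and 5224 on day 4. All wild-type arrays were higher on day 1 than on day 0 and lower on day 4, whereas Mll1-deleted arrays stayed above their day 0 range on days 1, 2 and 4. Fads1 rose by day 1 in wild-type cultures (0.68 ± 0.17, adjusted p = 0.00443), and that call was lost without mouse 862 (adjusted p = 0.0651). It rose also in Mll1-deleted ones (0.68 ± 0.17, adjusted p = 0.00978), lost without mouse 489 (adjusted p = 0.0505) and with only the arrays of the groups compared (adjusted p = 0.136). Between days 1 and 4 it fell by 1.05 (SE 0.17, adjusted p = 1.1e-04) in wild-type cultures, and the change was 0.00 ± 0.17 in Mll1-deleted ones (adjusted p = 0.989). The genotypes differed on day 4 by 1.08 ± 0.16 (adjusted p = 1.7e-04). Fads2 in wild-type mice read 4682, 4622 and 4640.3 on day 0, 8282, 8992 and 8499.6 on day 1, 6529, 7664 and 7192 on day 2 and 6140.5, 6537 and 5308 on day 4. Fads2 in Mll1-deleted mice read 4522, 3243 and 4929 on day 0, 6707, 5286 and 7820.1 on day 1, 7575, 7044 and 9586 on day 2 and 8621, 7738 and 8468 on day 4. Arrays of days 1, 2 and 4 were above day 0 in both genotypes, Mll1-deleted arrays were below wild-type ones on day 1 and above them on day 4. The day 4 difference of 0.47 ± 0.14 (adjusted p = 0.0427) was lost without mouse 489 (adjusted p = 0.187), without mouse 818 (adjusted p = 0.0936), without mouse 862 (adjusted p = 0.0855), without mouse 870 (adjusted p = 0.277), without a mouse term (adjusted p = 0.0679) and with only the arrays of the groups compared (adjusted p = 0.0785).

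The branches were then set side by side in wild-type cultures. By day 1, 8 of 18 sterol members were called lower and 0 higher, with a median change of -0.48, and the fatty acid branch had 1 lower (Elovl6), 2 higher (Fads1 and Fads2) and a median of 0.12. That fatty acid median was 0.00 without mouse 870 and 0.19 without mouse 862. Over all members 10 were lower and 2 higher, where 13.8% of all genes were called lower and 11.6% higher. By day 2, 14 sterol members were lower (median -0.66), against 3 lower and 1 higher in the fatty acid branch (median -0.19), which with the 3 regulators gave 20 lower and 1 higher where 18% and 15.6% of all genes were. Without mouse 862, 13 members were called on day 2 instead of 21. By day 4, 10 sterol and 5 fatty acid members were lower and 0 were higher (medians -0.38 and -0.42), and with Insig1 and Srebf2 that made 17 lower where 20.4% of all genes were lower and 17.1% higher.

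From day 1 to day 4 in wild-type cultures, 3 of 18 sterol members fell (Mvd, Fdft1 and Dhcr7) and the branch median was 0.03. In the same span 6 of 10 fatty acid members fell (Acaca, Fasn, Elovl6, Scd1, Fads1 and Fads2), and all 10 had a negative difference with a median of -0.59. With Insig1, 10 members were lower and 0 higher, where 12.5% of all genes were lower and 8.52% higher. The count of 10 became 6 without mouse 818 and 5 without mouse 870. The median difference of all genes lay between -0.03 and 0.07 over the 16 comparisons.

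In Mll1-deleted cultures, 0 members were lower and 3 higher by day 1 (Tm7sf2, Fads1 and Fads2), where 6.52% of all genes were lower and 5.87% higher. The sterol median was -0.14 and the fatty acid median 0.01, and they were -0.36 and -0.11 without mouse 814 and 0.00 and 0.14 without mouse 858. That count of 3 became 1 without mouse 489 and 6 without mouse 814, and 5 with the mouse as a block, the gains being lower calls of Msmo1 and Stard4. By day 2, 13 sterol members were lower and 0 higher (median -0.65), and the fatty acid branch had 3 lower and 3 higher (median -0.15, but -0.27 without mouse 814 and -0.05 without mouse 489). In all 17 members were lower and 3 higher, where 13.9% and 9.41% of all genes were, and 8 were called without mouse 489 instead of 20. By day 4, 4 sterol members were higher (Hmgcs1, Mvd, Fdft1 and Lss) and 1 lower (Ebp), with a median of 0.17. The fatty acid branch had 4 higher (Acss2, Scd2, Fads1 and Fads2) and 1 lower (Elovl6), with a median of 0.09 that was 0.00 without mouse 489 and 0.17 without mouse 814. With Srebf1 this made 9 higher and 2 lower, where 13.9% of all genes were higher and 15.7% lower, and 7 were called without mouse 489 instead of 11. From day 1 to day 4, 4 sterol members rose (Hmgcs1, Mvd, Lss and Msmo1), as did Aacs and Srebf1, where 8.8% of all genes were higher and 9.3% lower. These 6 became 3 without mouse 489 and 11 with the mouse as a block, which added Mvk, Fdft1, Hsd17b7, Acss2 and Fads2, all higher.

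Mouse by mouse, the sterol median change from the animal's own day 0 was -0.41, -0.52 and -0.62 on day 1 in wild-type mice 818, 862 and 870. In Mll1-deleted mice 489, 814 and 858 it was -0.15, 0.30 and -0.46, so that mouse 858 lay inside the wild-type range and mouse 814 stood above zero. On day 2 the values were -0.55, -0.53 and -0.84 in wild-type mice and -0.77, -0.51 and -0.54 in Mll1-deleted ones, which overlap. On day 4 they were -0.36, -0.35 and -0.64 against 0.24, 0.16 and 0.18, and the genotypes were apart. The fatty acid median on day 4 was -0.23, -0.36 and -0.67 in wild-type mice against 0.27, 0.05 and 0.06 in Mll1-deleted ones, also apart.

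**Figure D3:**
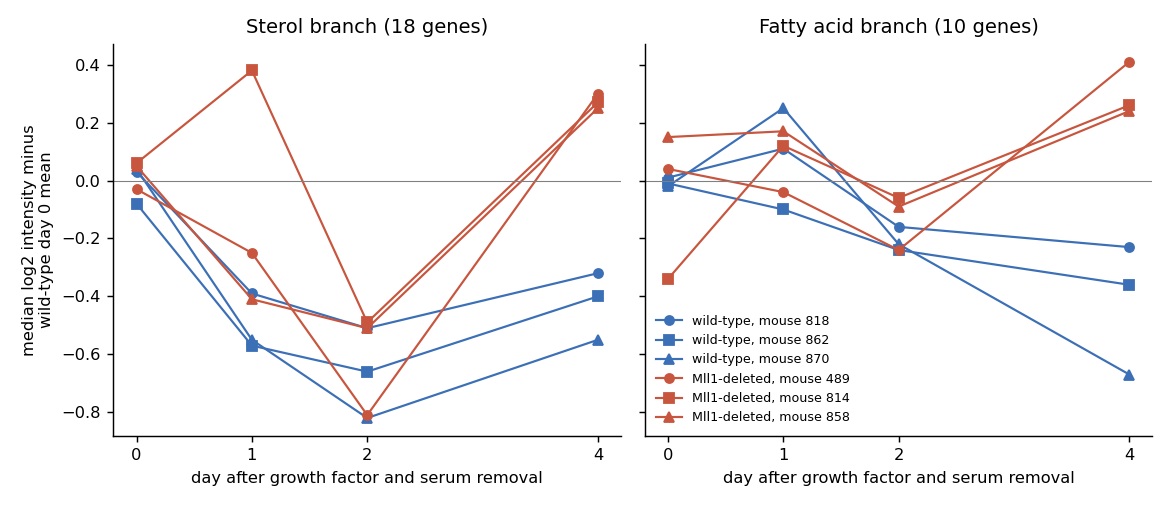
Median log2 intensity of the 18 sterol genes (left) and 10 fatty acid genes (right) on each array, minus the wild-type day 0 mean of each gene, against the day, with 1 line per mouse (blue wild-type, red Mll1-deleted). The sterol lines of both genotypes run from -0.49 to -0.82 on day 2, and on day 4 the red lines are at 0.25 to 0.30 and the blue ones at -0.32 to -0.55. The fatty acid lines separate by genotype on day 4 only.

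Genotypes were compared next on each day. On day 0, 1 of 31 members was called (Sc5d, higher), where 5.41% of all genes were higher and 4.7% lower, and the branch medians were 0.03 and 0.01. Without mouse 858 that count was 4. On day 1, 7 members were higher and 0 lower (Fdps, Tm7sf2, Nsdhl, Stard4, Acly, Scd1 and Insig1), where 3.61% of all genes were higher and 3.84% lower. The sterol median was 0.28 (0.15 without mouse 814) and the fatty acid median -0.02. The 7 became 3 without mouse 489, 3 without 814, 14 without 858, 1 without 862 and 3 without 870. The share of all genes called without a mouse is not given, so such counts have no baseline. On day 2, Scd1, Fads1 and Srebf1 were higher and 0 members lower, where 4% of all genes were higher and 4.73% lower, and only 1 was called without mouse 818.

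On day 4, 13 of 18 sterol members, 7 of 10 fatty acid members and all 3 regulators were higher and 0 were lower, where 3.73% of all genes were higher and 2.73% lower. All 3 Mll1-deleted arrays lay above all 3 wild-type arrays in 29 of 31 members, against 12.9% of all genes. The median difference was 0.68 in the sterol branch and 0.64 in the fatty acid branch, and no test was made between the branches. Without mouse 870 the count of 23 was 15, and it was 26 without mouse 858. Over the means of 4 days, 11 members were higher and 0 lower, where 3.59% of all genes were higher and 3.71% lower. This count was 7 without mouse 489, 814 or 818 and 4 without mouse 862 or 870.

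**Figure D4:**
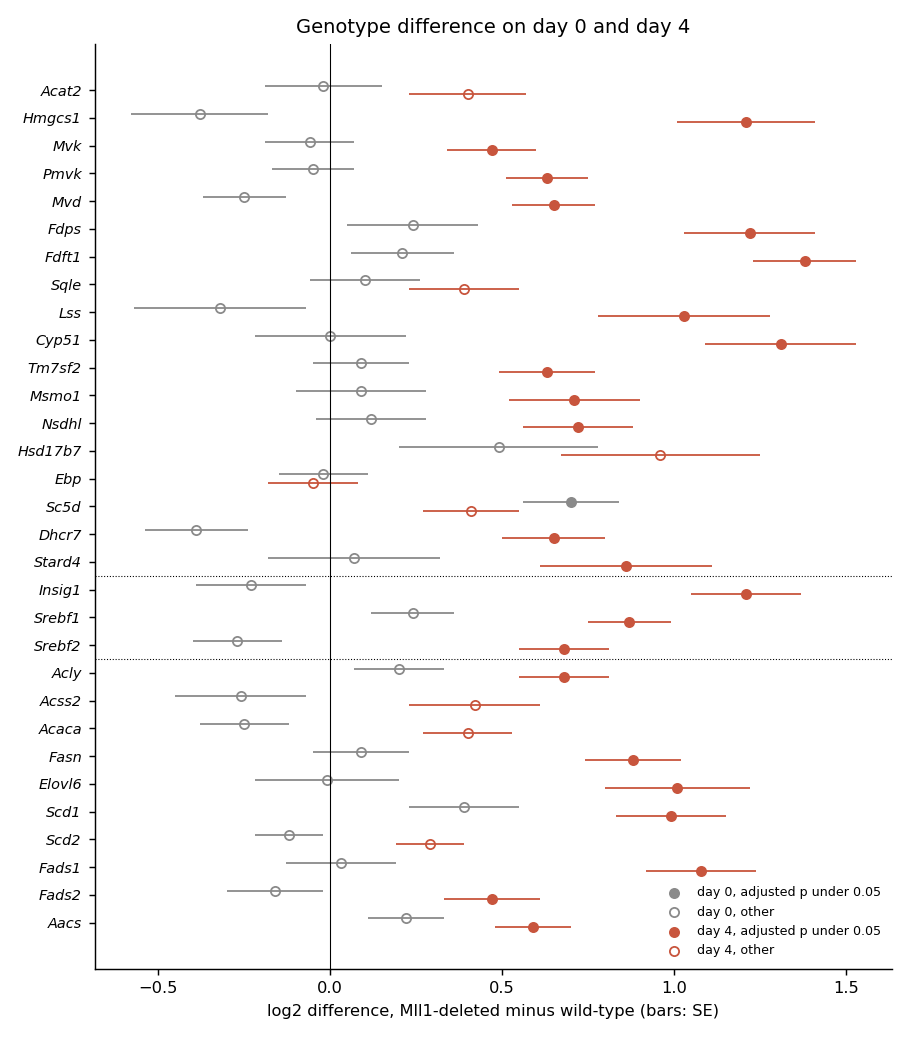
Log2 difference between Mll1-deleted and wild-type cultures for each member on day 0 (grey) and day 4 (red), with bars of 1 standard error and n = 3 mice per genotype. Filled points passed an adjusted p under 0.05. The day 0 points scatter around 0 from -0.39 to 0.70, with Sc5d the only filled one, and all red points but Ebp lie to the right of 0.

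The change from day 0 itself differed between genotypes for 15 members on day 4, all more positive in Mll1-deleted cultures, where 3.27% of all genes were more positive and 2.56% more negative. These were 8 sterol members, 4 fatty acid members and the 3 regulators, with branch medians of 0.65 and 0.64. The difference was 1.59 ± 0.28 for Hmgcs1 (adjusted p = 0.00149), 1.44 ± 0.21 for Insig1 (adjusted p = 2.7e-04) and 1.17 ± 0.21 for Fdft1 (adjusted p = 0.00179). It was 1.04 ± 0.20 for Dhcr7 (adjusted p = 0.0034), 0.95 ± 0.18 for Srebf2 (adjusted p = 0.003) and 0.90 ± 0.17 for Mvd (adjusted p = 0.00253). These 6 kept the call under all 13 alternatives. Code 1 probe sets, the mean of probe sets and the lower quartile filter left the intensities of these 6 unchanged. The 15 became 7 without mouse 489, 9 without 818, 8 without 862 and 6 without 870. With the mouse as a block, Mvk, Tm7sf2, Scd1 and Fads2 were called too. By sign, 19 of 31 members were lower in wild-type and higher in Mll1-deleted cultures than on day 0, 14 of them in the sterol branch and 3 in the fatty acid branch. Mvd, Fdft1 and Lss were called in both genotypes in opposite directions. The share of all genes with either pattern was not counted, so these counts have no baseline. For Lss the wild-type change was -0.66 ± 0.25 (adjusted p = 0.0412), lost without mouse 818 (adjusted p = 0.0925), without mouse 862 (adjusted p = 0.0623) and without mouse 870 (adjusted p = 0.34), and the Mll1-deleted one 0.69 ± 0.25 (adjusted p = 0.0419), lost without mouse 489 (adjusted p = 0.197), without mouse 818 (adjusted p = 0.0522), without mouse 858 (adjusted p = 0.0898), without mouse 862 (adjusted p = 0.0596), without mouse 870 (adjusted p = 0.0544) and with arrays shifted to the same median (adjusted p = 0.0742).

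On day 1, Insig1 was the only member whose change differed (1.05 ± 0.21, adjusted p = 0.00732), where 1.28% of all genes were more positive and 1.15% more negative. The Insig1 call was lost without mouse 814 (adjusted p = 0.0902) and without mouse 870 (adjusted p = 0.0919), 4 members were called without mouse 858, and Tm7sf2 was added with the mouse as a block. On day 2 the difference of changes was called for 0 members, where 2.18% of all genes were more positive and 2.62% more negative. An unadjusted p under 0.05 was reached by 5 members in that limma comparison, and Fads1 was called with the mouse as a block (adjusted p = 0.0174).

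Further genes of the same pathways were counted from lists. Of 10 other genes of sterol synthesis, uptake and SREBP processing, wild-type cultures had 5 lower on day 1, 7 on day 2 and 6 on day 4, where 13.8%, 18% and 20.4% of all genes were, and 0 higher. In Mll1-deleted cultures 1, 5 and 5 were lower, where 6.52%, 13.9% and 15.7% of all genes were, and 1 was higher on day 4, which was Ggps1, the geranylgeranyl pyrophosphate synthase (0.34 ± 0.10, adjusted p = 0.00915). Lbr, which carries a sterol reductase domain, fell by 1.31 (SE 0.23, adjusted p = 8.5e-05) in wild-type and fell by 0.75 (SE 0.23, adjusted p = 0.0176) in Mll1-deleted cultures by day 4. The protease genes Mbtps1 and Mbtps2 also fell in both genotypes, with differences of -0.64 and -0.48 in wild-type and -0.35 and -0.40 in Mll1-deleted cultures. Between genotypes 3 of the 10 were higher on day 4 and 0 lower, where 3.73% and 2.73% of all genes were.

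Of 13 genes of sterol export, storage and oxysterol signalling, 4, 6 and 6 were higher on days 1, 2 and 4 in wild-type cultures, where 11.6%, 15.6% and 17.1% of all genes were. In Mll1-deleted cultures 4, 4 and 6 were higher, where 5.87%, 9.41% and 13.9% of all genes were. Npc1 was the only one lower in wild-type cultures on day 4. Apoe, the main brain lipoprotein carrier, rose by day 4 in wild-type (1.52 ± 0.29, adjusted p = 2.0e-04) and in Mll1-deleted cultures (2.71 ± 0.29, adjusted p = 4.4e-07). Abca1, which exports cholesterol, rose by day 1 in wild-type (1.34 ± 0.16, adjusted p = 1.7e-06) and in Mll1-deleted cultures (0.81 ± 0.16, adjusted p = 0.00134). The day 4 change was more negative in Mll1-deleted cultures for Abca1 (-0.83 ± 0.22), Abcg1 (-0.81 ± 0.23) and Npc2 (-0.46 ± 0.13), with adjusted p of 0.0302, 0.0393 and 0.0336. Over the list 3 of 13 changes were thus called more negative and 0 more positive, where 2.56% and 3.27% of all genes were, while 8 of the 13 had a positive difference and the median was 0.13. The highest was that of Apoe (1.19 ± 0.41, adjusted p = 0.0942). Between genotypes 1 of the 13 genes was higher and 0 lower on day 4 (median 0.01), where 3.73% and 2.73% of all genes were. On day 0, 2 were higher and 3 lower in Mll1-deleted cultures, where 5.41% and 4.7% of all genes were.

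Of 16 other genes of fatty acid and glycerolipid metabolism, 3 were higher and 8 lower on day 4 in wild-type cultures, where 17.1% and 20.4% of all genes were. In Mll1-deleted cultures 5 were higher and 3 lower, where 13.9% and 15.7% of all genes were. The day 4 change was more positive in Mll1-deleted cultures for 4 of them and more negative for 0, where 3.27% and 2.56% of all genes were. Thrsp, a lipogenic factor, differed by 2.08 ± 0.29 (adjusted p = 1.8e-04). Dgat2, which makes triacylglycerol, differed by 0.98 ± 0.19 (adjusted p = 0.00279). Lpin1, which makes diacylglycerol, differed by 0.93 ± 0.22 (adjusted p = 0.0133), and Dgat1 by 0.52 ± 0.15 (adjusted p = 0.0369). Gpam, which starts glycerolipid synthesis, rose in both genotypes by day 4, by 0.85 ± 0.32 (adjusted p = 0.0396) and 1.85 ± 0.32 (adjusted p = 1.2e-04). Both Gpam and Apoe started lower in Mll1-deleted cultures, with day 0 differences of -1.29 ± 0.28 (adjusted p = 0.00373) and -1.15 ± 0.27 (adjusted p = 0.00717).

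Marker lists were also compared between genotypes on day 4. Of 15 oligodendrocyte genes, 10 were higher and 0 lower in Mll1-deleted cultures on day 4, where 3.73% of all genes were higher and 2.73% lower. The list medians were 1.35, 0.92 and 1.69 in mice 489, 814 and 858 against the wild-type mean of that day. The summed intensity of the list was 3813 to 7590 over wild-type arrays and 4551 to 16756 over Mll1-deleted arrays, and 0 of its genes lay below the lower quartile in every array. Sox10, a transcription factor of the oligodendrocyte lineage, read 119, 122 and 147 in wild-type and 241, 212 and 404 in Mll1-deleted mice on day 4 (1.09 ± 0.22, adjusted p = 0.00346). The genotypes did not overlap, and mouse 858 was highest and mouse 814 lowest of the Mll1-deleted mice, while the sterol medians against the wild-type mean of day 4 were 0.75, 0.71 and 0.63 in mice 489, 814 and 858. The part of these cells in the lipid synthesis result was not tested.

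Of 12 proliferation genes measured, all 12 fell in both genotypes by day 4. Over all genes 20.4% fell in wild-type and 15.7% in Mll1-deleted cultures. On day 4, 3 were higher and 0 lower in Mll1-deleted cultures, where 3.73% and 2.73% of all genes were. The list medians against the wild-type mean of that day were 0.61, 0.90 and 0.83 in mice 489, 814 and 858. Mki67, a marker of dividing cells, read 105, 48.7 and 64.6 in wild-type and 228, 297 and 184 in Mll1-deleted mice on day 4. On day 1 these medians were 0.49, 0.95 and -0.44 beside sterol medians of 0.34, 0.71 and 0.03. Mouse 814 was highest and mouse 858 lowest in both lists on that day. The order differed on day 4, when the sterol medians were 0.75, 0.71 and 0.63. Mouse 489 was then highest in the sterol list and lowest in the proliferation list. The part of proliferation in the genotype difference was not tested. Summed intensity of the list ran from 1712 to 19521 over wild-type and from 3298 to 17054 over Mll1-deleted arrays.

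Neuroblast genes were lower in Mll1-deleted cultures on day 4 in 2 of 10 cases and higher in 0, where 2.73% and 3.73% of all genes were. On days 0, 1 and 2, 2, 6 and 8 were lower and 2, 1 and 0 higher, with medians of -0.30, -1.24 and -1.66. Over all genes 4.7%, 3.84% and 4.73% were lower and 5.41%, 3.61% and 4% higher on these days. Dcx, a migrating neuroblast marker, read 1592, 1179.8 and 1387 in wild-type and 300.0, 881 and 1624 in Mll1-deleted mice on day 4. The astrocyte list had 1 higher and 1 lower of 8 on day 4, with a median of 0.04, against the same shares of all genes. On days 0, 1 and 2 it had 4, 4 and 2 lower and 0 higher, with medians of -0.72, -0.71 and -0.43. Its change by day 4 differed between genotypes by a median of 0.80. Of these changes 1 was called more positive and 1 more negative, where 3.27% and 2.56% of all genes were. Gfap, an astrocyte filament, read 6270.5, 6369 and 3557 in wild-type and 7441, 6789 and 4479 in Mll1-deleted mice on day 4. The 6 fibroblast genes had a summed intensity of 454 to 1058 over wild-type arrays and 850 to 3795 over Mll1-deleted ones, and Lum was below the lower quartile in every array. All 6 had a positive genotype difference on each of the 4 days, with medians of 0.86, 1.26, 0.82 and 0.84. Of them 2, 3, 1 and 1 were called higher and 0 lower. Over all genes 5.41%, 3.61%, 4% and 3.73% were higher and 4.7%, 3.84%, 4.73% and 2.73% lower. On day 4 the fibroblast medians were 0.92, 1.56 and 0.16 in mice 489, 814 and 858 against -0.12, 0.03 and 0.01 in the wild-type mice, without overlap. Of 8 endothelial and pericyte genes 1 was lower and 0 higher on day 4, where 2.73% and 3.73% of all genes were (summed intensity 462 to 1021 over all arrays). Of 6 ependymal genes 0 were called by limma on that day (307 to 2723), while all 6 had a negative difference (median -0.31). On days 0, 1 and 2, 0, 1 and 3 of them were lower and 0 higher, with medians of -0.06, -0.51 and -0.58. Over all genes 4.7%, 3.84% and 4.73% were lower and 5.41%, 3.61% and 4% higher. Summed intensity was 259 to 317 for 8 microglia genes and 215 to 286 for 7 adipocyte and hepatocyte genes, of which Adipoq, Fabp4 and Alb were below the lower quartile in every array. The part of neuroblasts, astrocytes, ependymal cells and fibroblasts in the result was not tested either.

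**Figure D5:**
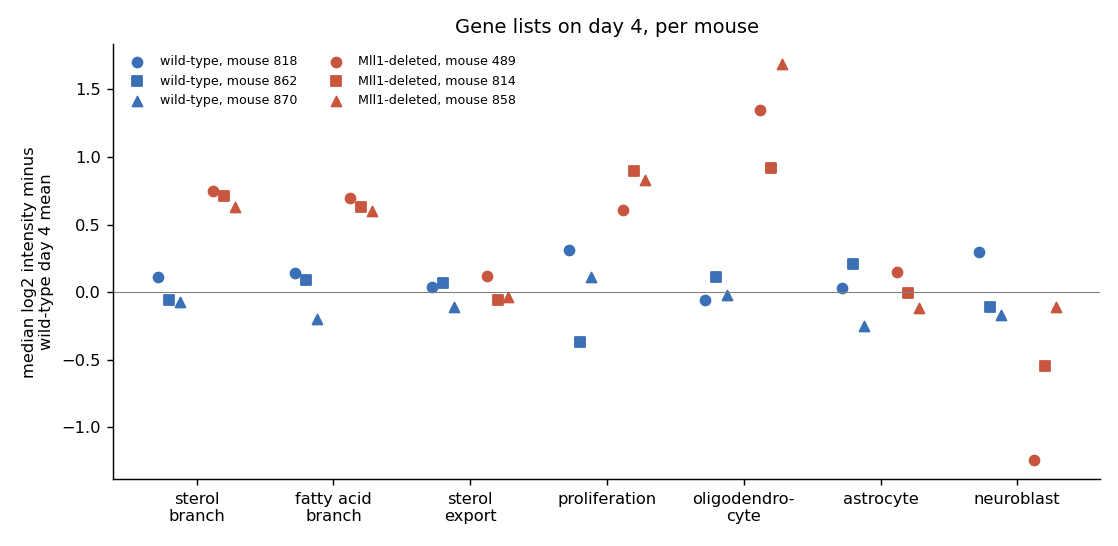
Median log2 intensity of 7 gene lists in each mouse on day 4, minus the wild-type day 4 mean of each gene (blue wild-type, red Mll1-deleted, marker shape for the mouse). The red points of both synthesis branches lie between 0.60 and 0.75, above all blue points, the oligodendrocyte and proliferation lists are also higher in red with a wider spread, and the sterol export, astrocyte and neuroblast lists overlap.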

How the data were processed

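RNA of 24 cultures (8 groups of 3 mice) was read on 1-colour Affymetrix arrays. Per the submitters' processing notes, the authors used Affymetrix Power Tools with RMA and genome build mm9, with no versions given. The deposited table holds intensity values between 3.484 and 30298, taken as linear from their range. A second deposited table gives each probe set its gene symbols and a code for cross-hybridisation (25232 with code 1, 3118 with code 3) that it does not explain.

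Of 28350 probe sets, 22232 carried 1 symbol, 2980 several and 3138 none, and 2126 symbols were updated through RefSeq names. A gene was read from its brightest probe set on average, giving 21072 genes. Log2 intensities were fitted with limma 3.58.1 (R 4.3.3) over all 24 arrays, with 1 mean per group and Benjamini-Hochberg adjustment over all genes. Genotypes were compared within a day with mice as random effects (duplicateCorrelation, 0.165), and across the 4 days on the means of the 6 mice. The fit was tested on simulated data with independent arrays, for the wild-type change by day 1 only. That test did not cover the genotype comparisons, the differences of changes or the repeated sampling of a mouse.

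Replicates were separate mice, each sampled on 4 days, so the mouse number pairs samples over time. The main fit of changes over time and of differences of changes had no mouse term. Its p-values therefore did not use this pairing, and the mouse as a fixed block was an alternative. Deviations of the same mouse had a median correlation of 0.216 among wild-type (16 of 18 pairs over 0.1) and 0.31 in Mll1-deleted cultures (18 of 18), against -0.123 and -0.143 between mice.

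Alternatives were the mouse as a fixed block, arrays shifted to the same median, genes above the lower quartile, code 1 probe sets, a pseudocount of 16, the mean of a gene's probe sets, only the arrays compared, and each of 6 mice left out. The members and lists were chosen with earlier results of these data known. Values in every array are given for the regulators, for the 4 members of each branch with the smallest p over time, and for members called between genotypes. Other lists were counted, with up to 4 called genes named per list and comparison, and some of their genes are not reported here. Marker lists covered proliferation, neural stem cells, neuroblasts, astrocytes, oligodendrocytes, microglia, endothelial cells and pericytes, ependyma, fibroblasts, and adipocytes and hepatocytes, and Pdgfra and Cspg4 stand on 2 lists each. Figures were drawn with matplotlib 3.10.9 in Python 3.11.15.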

Additional observations from a re-analysis of the deposited data

Results flagged for a closer look

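For 15 members the change from day 0 to day 4 differed between genotypes by a test of the difference itself, and each was more positive in Mll1-deleted cultures. In the sterol branch the difference was 1.59 log2 units for Hmgcs1, 1.35 for Lss, 1.31 for Cyp51 and 1.17 for Fdft1. It was 1.04 for Dhcr7, 0.99 for Fdps, 0.90 for Mvd and 0.68 for Pmvk. In the fatty acid branch it was 1.05 for Fads1, 1.02 for Elovl6, 0.79 for Fasn and 0.65 for Acaca. Among the regulators it was 1.44 for Insig1, 0.95 for Srebf2 and 0.63 for Srebf1. Of the 13 alternatives, the call of Acaca was lost in 8, among them code 1 probe sets only (0.53, adjusted p = 0.203) and the mean of its probe sets (0.59, adjusted p = 0.0847). The calls of Pmvk, Fasn, Elovl6 and Srebf1 were lost in 5 each, of Fdps and Lss in 4 each, of Cyp51 in 3 and of Fads1 in 2. On day 1 the change differed for Insig1, by 1.05. The oligodendrocyte, proliferation and fibroblast lists were higher by their medians in each Mll1-deleted mouse than in any wild-type mouse on day 4. Their changes by day 4 differed between genotypes by medians of 1.26, 1.13 and 0.09. Of these changes 8 of 15, 3 of 12 and 0 of 6 were called more positive and 0 more negative, where 3.27% and 2.56% of all genes were. The part of these lists in the member values was not tested.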

How the results depend on the processing

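Of 161 member calls over 16 comparisons, 0 changed direction under the 13 alternatives. Code 1 probe sets, the mean of probe sets and the lower quartile filter could not change a direction for members other than Acaca. These settings left their intensities as they were. With the mouse as a fixed replicate block 3 calls were lost and 28 gained, and the counts of members called became 5 in Mll1-deleted cultures on day 1, 11 from day 1 to day 4, and 2 and 1 for the difference of changes on days 1 and 2. The block changed no other count by over 1.5 times. Between genotypes within a day no mouse block can be fitted, and the fit without a mouse term took its place. With arrays shifted to the same median, the fatty acid median was 0.08 on day 1 and -0.29 on day 2 in wild-type cultures. The sterol median was then -0.75 on day 2 and -0.47 on day 4 in wild-type and 0.09 on day 4 in Mll1-deleted cultures, and 2 members differed in their day 2 change. With only the arrays of the groups compared, 0 members were called in Mll1-deleted cultures on day 1 by limma (8 had an unadjusted p under 0.05 in the full fit), 3 from day 1 to day 4, and 1 between genotypes on day 1. Leaving out each mouse moved medians: the fatty acid median from 0.00 to 0.19 on day 1 in wild-type cultures, 0.55 to 0.79 for the day 4 difference of changes and -0.11 to 0.02 between genotypes on day 1. The sterol median ran from -0.76 to -0.52 on day 2, -0.47 to -0.38 on day 4 and 0.17 to 0.50 for the day 1 difference of changes. Counts ran from 13 to 21 on day 2 in wild-type and 5 to 13 from day 1 to day 4. In Mll1-deleted cultures they ran from 1 to 6, 8 to 20 and 7 to 12 on days 1, 2 and 4, and 3 to 8 from day 1 to day 4. For the difference of changes they ran from 0 to 4 on day 1 and 6 to 17 on day 4. Between genotypes they ran from 1 to 4, 1 to 14, 1 to 4 and 15 to 26 on days 0, 1, 2 and 4, and 4 to 13 over all days. The cause of these shifts was not tested, and fits without a mouse hold fewer samples. Shares of all genes called under each alternative are not given, so the shifted counts have no baseline. All member values lay above the lower quartile of their array.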
